A study of Mus musculus with 6 samples.

Results

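Transcripts of 10 amino acid transporters were followed in stimulated CD8 T cells of mice labelled wild type or knockout for the kinase NIK. They are Slc7a5, Slc3a2, Slc7a6, Slc7a11, Slc7a1, Slc1a5, Slc1a4, Slc38a1, Slc38a2 and Slc38a9, chosen by gene symbol as plasma membrane and lysosomal carriers of T cells. All 10 were found among the 49492 rows of the count table, and all 10 passed the filter on low counts that left 15186 genes for testing. The cells were splenic CD8 T cells, described as naive, from C57/BL6 mice 6 to 8 weeks old, and all of them carried the OT-I receptor transgene. WT-TCR libraries (replicates 1 to 3) came from Wild Type-OT-I mice. KO-TCR libraries (replicates 4 to 6) came from NIK-CD4Cre-OT-I mice, in which Cre driven by Cd4 sequences acts on the NIK gene Map3k14 from T cell development onward, before the stimulation. Every culture had received plate-bound anti-CD3 (1 µg/ml) and soluble anti-CD28 (1 µg/ml) for 24 hours, so no library shows the unstimulated state. The labels do not tie each library to a mouse of its own, so p-values describe the spread between these libraries.

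T cells that leave rest and start to divide build protein quickly, and they raise amino acid uptake to do so. Slc3a2 encodes the CD98 heavy chain, a partner protein that brings light chains such as those of Slc7a5, Slc7a6 and Slc7a11 to the cell surface. Imported leucine and arginine are read at the lysosome by the mTORC1 kinase complex, while shortage is read by the kinase GCN2, which acts through the transcription factor ATF4. MYC and ATF4 are both known to raise transcription of several transporter genes.

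The promoters of Slc1a4 and Slc7a11 are shown because they hold the letters of the composite element of ATF4 and C/EBP factors, while these genes gave, as described below, the most negative estimate of the 10 and an estimate near 0. Of the 10 genes, 7 matched the RefSeq promoter table (GRCm38.p6, 250 bases before to 50 bases after the start), with 9 windows in all. Slc7a5, Slc1a5 and Slc38a1 had no window there and were not searched. Both windows shown lie on the minus strand and are written 5′ to 3′, with capitals marking the match to TGATGNAA on either strand.
Slc1a4 promoter (chr11:20332664-20332963): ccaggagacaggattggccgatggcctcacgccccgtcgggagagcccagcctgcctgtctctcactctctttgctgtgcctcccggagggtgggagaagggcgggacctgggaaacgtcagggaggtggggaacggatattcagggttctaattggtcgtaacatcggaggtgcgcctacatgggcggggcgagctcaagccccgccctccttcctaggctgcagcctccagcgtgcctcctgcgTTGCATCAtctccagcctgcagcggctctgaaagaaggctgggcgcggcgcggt
Slc7a11 promoter (chr3:50443564-50443863): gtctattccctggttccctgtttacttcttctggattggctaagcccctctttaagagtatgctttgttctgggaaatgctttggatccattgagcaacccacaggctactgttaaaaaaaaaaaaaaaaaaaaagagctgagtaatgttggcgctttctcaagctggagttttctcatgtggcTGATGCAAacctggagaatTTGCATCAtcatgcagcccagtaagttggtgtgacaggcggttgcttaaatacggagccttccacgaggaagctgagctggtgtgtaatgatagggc
In Slc1a4 the match began at position -4 relative to the start, on the strand opposite the gene. In Slc7a11 a first match began at position -66 on the strand of the gene and a second at -47 on the opposite strand. TGATGNAA occurred in 2 of the 9 windows (2 of the 7 genes) and in 3.97% of 32851 promoter windows of the same length. CACGTG, the E box letters bound by MYC and MAX, occurred in 0 of the 9 windows and in 7.15% of all windows. A match of letters is a description of the window and does not show binding.

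Counts summed to between 41311346 and 47851445 per library, and the 10 transporters together took from 0.342% (KO replicate 6) to 0.423% (WT replicate 2) of them. At this depth a count of 3 equals 0.0627 to 0.0722 CPM (counts scaled to a shared library size by TMM factors), far under the level of any of the 10, and this floor covers counting error alone. Map3k14, the targeted gene, stood at 61.5 CPM ± 6.81 in the libraries labelled WT and at 56.6 CPM ± 7.10 in those labelled KO (mean ± SD over 3 libraries). Its counts, which cover the whole gene, did not set the groups apart, so each direction below is between libraries as labelled. T cell markers (Cd3d, Cd3e, Cd3g, Cd8a, Cd8b1, Trac and Lck) summed to 1967 to 2156 CPM in the 6 libraries, and the NK and erythroid lists to at most 0.314 CPM. Told apart by Xist, WT replicates 1 and 3 and KO replicate 6 were female, and WT replicate 2 and KO replicates 4 and 5 were male. Sex was thus not balanced between the labels.

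No transporter passed the test after adjustment over all genes, but 5 of the 10 had lower estimates in the libraries labelled KO with an unadjusted p under 0.05. These were the leucine carrier Slc7a5 and its partner Slc3a2, the arginine carrier Slc7a1, and the neutral amino acid carriers Slc1a4 and Slc1a5, with folds from 0.767 to 0.879. The same unadjusted rule took 7.26% of all tested genes, 3.44% as lower and 3.82% as higher. Of the 15186 genes, 1 passed after adjustment (0.00659%), which was not a transporter, and 0 were lower (0%). DESeq2 called 0 of the 10 and 91 of all genes (0.599%), 28 of them lower (0.184%), and it had the same count of 5 transporters lower at an unadjusted p under 0.05 (3.6% of all genes). All 3 libraries labelled KO lay under all 3 labelled WT for 6 of the 10, the 5 above and Slc7a6, where 6.07% of all tested genes did so. None of the 10 lay wholly above, where 6.68% of all genes did. Log2 folds were negative for 8 of the 10 and for 47.6% of all genes, and the median was -0.12 over the 10 and 0.01 over all. In bulk RNA, fewer cells expressing a gene and less RNA per cell cannot be told apart.

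**Figure D1:**
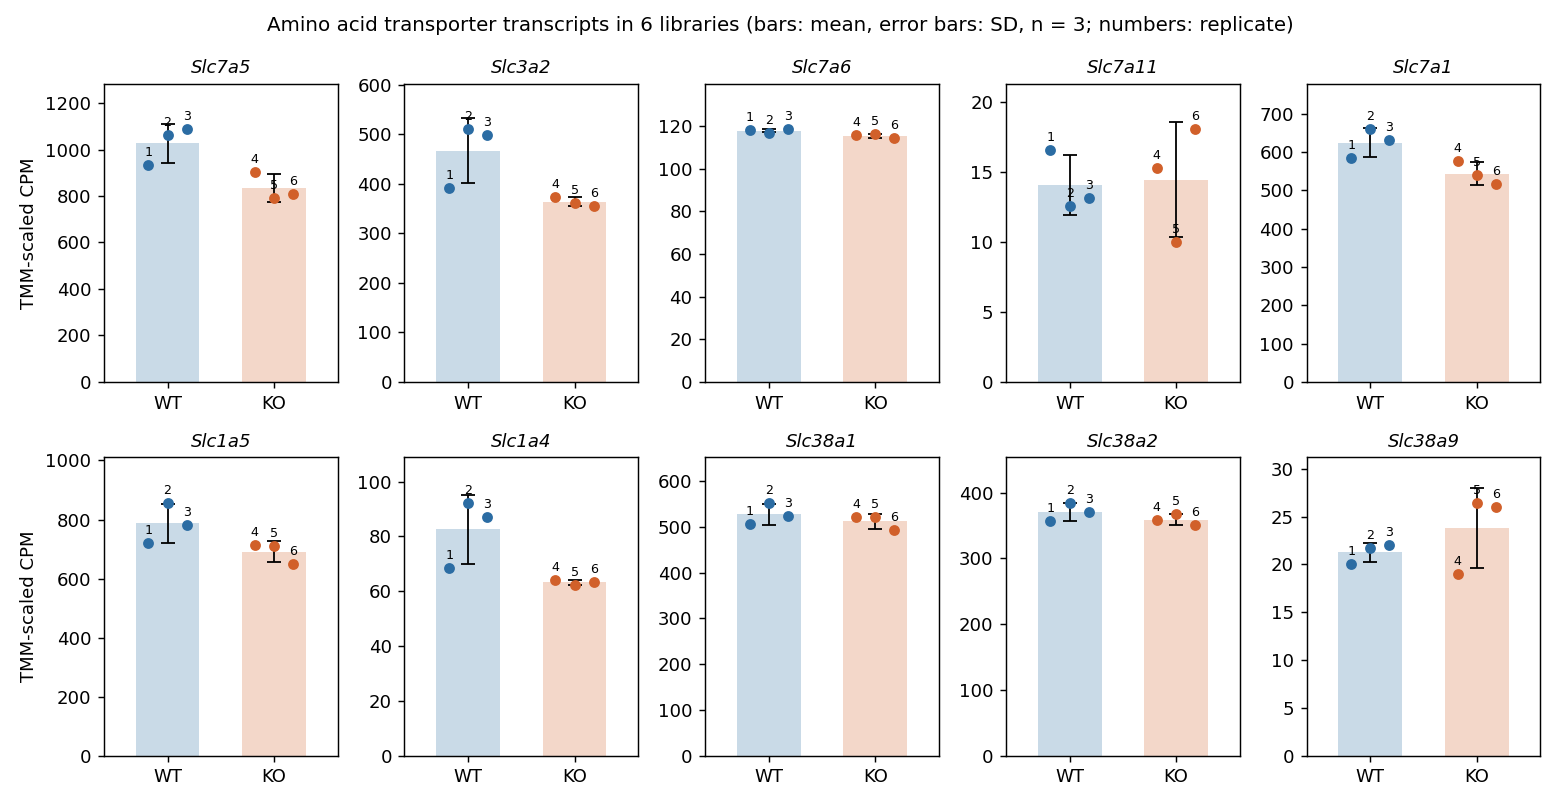
TMM-scaled CPM of each transporter (vertical axes from 0) in the 3 libraries labelled WT and the 3 labelled KO, with bars for means, error bars for SD and each point numbered by its replicate. Points of the groups separate for Slc7a5, Slc3a2, Slc7a1, Slc1a5, Slc1a4 and, by a small margin, Slc7a6, and overlap for Slc7a11, Slc38a1, Slc38a2 and Slc38a9.

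**Figure D2:**
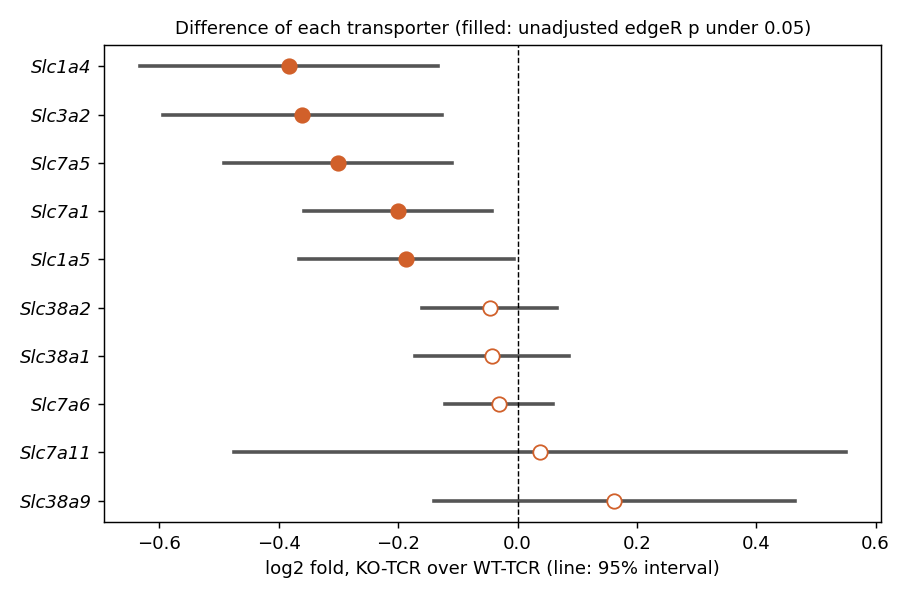
Log2 fold of KO-TCR over WT-TCR for each transporter (point) with its 95% interval (line), ordered by estimate, and filled where the unadjusted edgeR p was under 0.05. The 5 filled points, from -0.38 for Slc1a4 to -0.19 for Slc1a5, have intervals under 0, and the other 5 intervals span 0.

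Slc7a5, which encodes the LAT1 light chain that brings in leucine and other large neutral amino acids (chromosome 8, 121881150 to 121907694, minus strand, GRCm38), reached 932, 1062 and 1088 CPM in WT replicates 1, 2 and 3, against 903, 790.5 and 809.5 CPM in KO replicates 4, 5 and 6. The lowest WT library and the highest KO library differed little, and replicates 5 and 6 lay well under all others. Means were 1027 CPM ± 83.2 under the WT label and 834 CPM ± 60.1 under the KO label (SD, n = 3). The fold was 0.812 (95% interval 0.711 to 0.927), with a log2 fold of -0.30 (SE 0.08), an unadjusted p of 0.0072 and an edgeR adjusted p of 0.60. DESeq2 gave an adjusted p of 0.066.

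Slc3a2, the CD98 heavy chain (chromosome 19, 8706882 to 8723369, minus strand), reached 392, 511 and 499 CPM in WT replicates 1, 2 and 3. KO replicates 4, 5 and 6 had 374, 362 and 356 CPM. WT replicate 1 stood with the KO libraries rather than with WT replicates 2 and 3, although the groups did not overlap. The log2 fold was -0.36 (SE 0.10), with an unadjusted p of 0.0080 and an edgeR adjusted p of 0.60 (DESeq2 adjusted p = 0.077). Without WT replicate 1 the log2 fold was -0.47 and edgeR called the gene (adjusted p = 0.031), in a fit that called 0.43% of 15584 genes as lower. Leaving out WT replicate 2 or 3 instead gave -0.29 and -0.31 (edgeR adjusted p = 0.966 and 0.995).

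Slc7a6 and Slc7a11 encode other light chains that share the CD98 partner. Slc7a6, encoding y+LAT2, which exchanges cationic for neutral amino acids (chromosome 8, 106168857 to 106198706, plus strand), had 118, 117 and 119 CPM in the libraries labelled WT and 116, 116 and 114 CPM in those labelled KO. Its groups did not overlap, but the fold was 0.979 with a 95% interval of 0.919 to 1.04, the narrowest of the 10 (edgeR adjusted p = 0.86). Slc7a11, encoding the cystine and glutamate exchanger xCT (chromosome 3, 49892526 to 50443614, minus strand), had 16.5, 12.6 and 13.1 CPM under the WT label and 15.3, 10.02 and 18.05 CPM under the KO label. Both its extremes were KO libraries, replicates 5 and 6. Its log2 fold of 0.04 (SE 0.22, edgeR adjusted p = 0.98) had a fold interval from 0.719 to 1.46, the widest of the 10, and turned negative without WT replicate 2 (-0.04), WT replicate 3 (-0.01), KO replicate 4 (-0.0046) or KO replicate 6 (-0.15).

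Ratios of counts within a library, which do not depend on the scaling between libraries, compared the light chains with Slc3a2 directly. Slc7a6 counts were 0.302, 0.229 and 0.238 of Slc3a2 counts in WT replicates 1, 2 and 3, and 0.310, 0.321 and 0.321 of them in KO replicates 4, 5 and 6. Every KO library thus had more Slc7a6 per Slc3a2 than every WT library, with a log2 difference of 0.32 against within-group SDs of 0.22 (WT) and 0.03 (KO). The exact two-sided permutation p was 0.1, the smallest that 3 against 3 libraries allow, and 0.5 after adjustment over the 5 ratios compared. With log2 folds of -0.03 for Slc7a6 and -0.36 for Slc3a2, this ratio mostly restates the Slc3a2 difference and is not a separate result. Slc7a5 counts were 2.38, 2.08 and 2.18 times those of Slc3a2 under the WT label and 2.42, 2.18 and 2.27 times under the KO label. This ratio of obligate partners overlapped between the groups (log2 difference 0.05, exact permutation p = 0.4, adjusted 0.5). The ratio of Slc7a11 to Slc3a2 had a log2 difference of 0.36, also with overlapping groups (exact permutation p = 0.3, adjusted 0.5).

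Slc7a1, encoding CAT1, a carrier of arginine and lysine (chromosome 5, 148327410 to 148399904, minus strand), had 584, 660.0 and 631 CPM in WT replicates 1, 2 and 3. It had 576, 539.8 and 517 CPM in KO replicates 4, 5 and 6. WT replicate 1 and KO replicate 4 were close, and the groups did not overlap. The log2 fold was -0.20 (SE 0.07), with an unadjusted p of 0.019 and an edgeR adjusted p of 0.63.

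Slc1a4 and Slc1a5 encode the neutral amino acid exchangers ASCT1, for alanine, serine and cysteine, and ASCT2, which also takes up glutamine. Slc1a4 (chromosome 11, 20302180 to 20332713, minus strand) had 68.4, 92.2 and 86.9 CPM in WT replicates 1, 2 and 3, and a tight 64.0, 62.4 and 63.4 CPM in KO replicates 4, 5 and 6. As for Slc3a2, WT replicate 1 lay close to the KO libraries, and WT replicates 2 and 3 lay above. Its log2 fold was -0.38 (SE 0.11), with an unadjusted p of 0.0084 and an edgeR adjusted p of 0.60 (DESeq2 adjusted p = 0.088). Leaving out WT replicate 1 moved it to -0.50, which edgeR called (adjusted p = 0.024), in the fit that called 0.43% of 15584 genes as lower. Leaving out WT replicate 2 or 3 instead gave -0.30 and -0.34 (edgeR adjusted p = 0.966 and 0.995).

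Slc1a5 (chromosome 7, 16781340 to 16798274, plus strand) had 722, 856 and 782 CPM in WT replicates 1, 2 and 3, and 713, 711 and 650.4 CPM in KO replicates 4, 5 and 6. The groups were separated by a narrow gap between WT replicate 1 and KO replicate 4. The log2 fold was -0.19 (SE 0.08), with an unadjusted p of 0.044 and an edgeR adjusted p of 0.68. Without WT replicate 2 the log2 fold was -0.12, with an unadjusted p of 0.15. The ratio of Slc1a4 to Slc1a5 counts ran from 0.0947 to 0.111 under the WT label and from 0.0877 to 0.0975 under the KO label. These ranges overlapped (log2 difference -0.19, exact permutation p = 0.2, adjusted 0.5). With 3 against 3 libraries this test cannot give a p under 0.1, so it cannot decide whether the folds of these 2 genes differ.

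Slc38a1 and Slc38a2, encoding the sodium-coupled neutral amino acid and glutamine carriers SNAT1 and SNAT2, lie 44478 bases apart on the minus strand of chromosome 15 with 0 annotated protein-coding genes wholly between them. Slc38a1 (96571418 to 96642913) had 506, 553 and 524 CPM in WT replicates 1, 2 and 3, and 521, 522 and 492 CPM in KO replicates 4, 5 and 6. Slc38a2 (96687392 to 96699730) had 357, 384 and 371 CPM in the libraries labelled WT and 358, 367 and 351 CPM in those labelled KO. For both, the groups overlapped, with KO replicates 4 and 5 inside the WT range and KO replicate 6 under it. The fold was 0.971 for Slc38a1 (95% interval 0.887 to 1.06, edgeR adjusted p = 0.87) and 0.968 for Slc38a2 (95% interval 0.895 to 1.05, edgeR adjusted p = 0.82). The ratio of Slc38a1 to Slc38a2 counts stayed between 1.40 and 1.46 in all 6 libraries (log2 difference 0.0041, exact permutation p = 0.8, adjusted 0.8), and the sign of this small difference depended on the libraries included.

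Slc38a9, the lysosomal arginine sensor that signals to mTORC1 (chromosome 13, 112660751 to 112738749, plus strand), had 20.1, 21.7 and 21.99 CPM in WT replicates 1, 2 and 3. KO replicate 4 had 19.0 CPM, the lowest of the 6 libraries, and KO replicates 5 and 6 had 26.4 and 26.0 CPM, the highest. The groups therefore overlapped, and the log2 fold was 0.16 (SE 0.13, edgeR adjusted p = 0.78). Without KO replicate 4 it was 0.30, with an unadjusted p of 0.0054 (edgeR adjusted p = 0.33), where 5.92% of all genes were higher at an unadjusted p under 0.05. It was 0.08 without KO replicate 5 (edgeR adjusted p = 0.94) and 0.10 without KO replicate 6 (edgeR adjusted p = 0.96). Of the exon bases of Slc38a9, 182 (1.09%) overlap the antisense gene Gm47827, whose reads cannot be told apart without a strand setting. Exons of the other 9 transporters overlap no annotated gene.

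**Figure D3:**
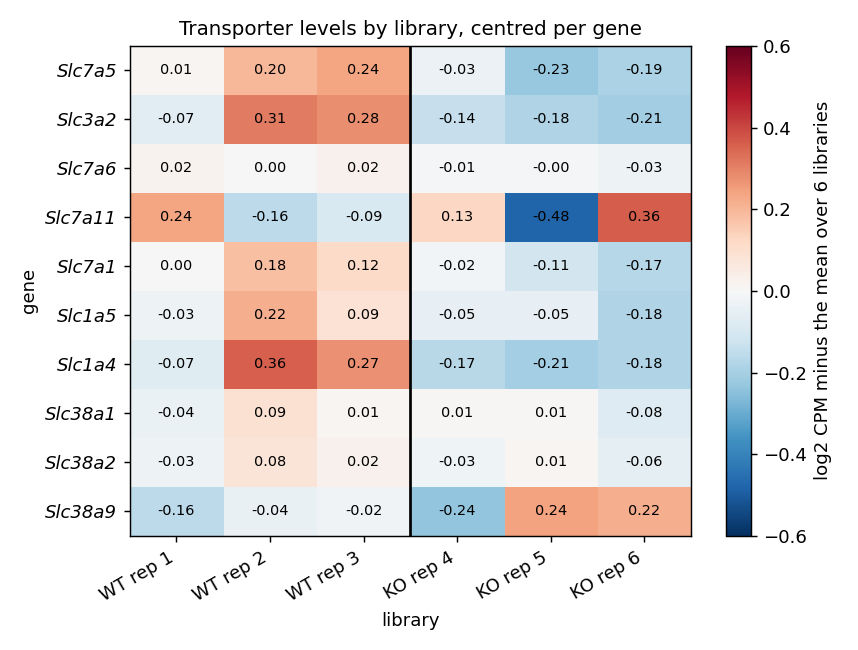
Log2 CPM of each transporter minus its own mean over the 6 libraries, with transporters as rows and libraries as columns (red above the mean, blue below). WT replicates 2 and 3 are above the mean for Slc7a5, Slc3a2, Slc7a1, Slc1a5 and Slc1a4, whereas WT replicate 1 is between -0.07 and 0.01 for these genes.

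WT replicate 1 was the lowest WT library, and KO replicate 4 the highest KO library, for all 5 transporters with lower estimates. The number of transporters lower at an unadjusted p under 0.05 was 5 without WT replicate 1, 4 without KO replicate 4, and 3 without any other single library (Slc7a5, Slc3a2 and Slc1a4 each time), with Slc1a5 the one lost without KO replicate 4. The share of all genes lower under that rule was 7.33%, 1.6% and 1.58% without WT replicates 1, 2 and 3, and 3.66%, 2.59% and 2.48% without KO replicates 4, 5 and 6. Slc3a2, Slc7a1 and Slc1a5 ranked the 6 libraries identically. Across the 6 libraries log2 CPM of Slc7a5 and Slc3a2 had Pearson r = 0.945 (exact permutation p = 0.0056, 0.031 adjusted over 45 pairs) and Spearman rho = 0.886 (exact permutation p = 0.033, adjusted 0.14). Without the 2 libraries farthest from the median of Slc7a5, WT replicate 3 and KO replicate 5, r was 0.942. For Slc3a2 and Slc1a4 r was 0.995 (exact permutation p = 0.0028, adjusted 0.025) and rho 0.943 (exact permutation p = 0.017, adjusted 0.094), and r was 0.915 without WT replicates 2 and 3. The libraries of each pair share depth and genotype label, so r over all 6 also holds the difference between the labels. With the mean of each group taken out, r was 0.824 for Slc7a5 and Slc3a2 and 0.984 for Slc3a2 and Slc1a4. All these values describe joint variation and do not test a genotype difference.

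Over the 9648 genes whose mean reached 5 CPM, the 5 whose log2 CPM followed Slc7a5 most closely over the 6 libraries were Pcbp4 (r = 0.992), Abhd11 (0.989), Slc35c2 (0.988), Mars (0.988) and Yars (0.986). Mars and Yars encode the tRNA synthetases that load methionine and tyrosine. Of the other transporters, Slc7a1 ranked 50 of the 9648 genes and Slc3a2 ranked 74. These values are a description over 6 libraries that share their genotype labels.

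Levels of different transporters were compared per kilobase of exon. Slc7a5 had the highest level, 277 ± 22.4 CPM per kilobase under the WT label and 225 ± 16.2 under the KO label (SD, n = 3 each). Slc1a5 followed (189 ± 16.2 and 166 ± 8.53), then Slc3a2 (132 ± 18.5 and 103 ± 2.56) and Slc7a1 (54.2 ± 3.31 and 47.2 ± 2.56). Over all 6 libraries Slc38a2 averaged 41.3, Slc38a1 30.2, Slc7a6 25.5 and Slc1a4 18.6 CPM per kilobase. Slc38a9 and Slc7a11 were far lower, at 1.35 and 1.02, and the top gene stood 245 times above the last. Ranges over the 6 libraries did not overlap for 8 of the 9 pairs of neighbours in this order, the exception being Slc38a9 and Slc7a11. With the length of the longest protein-coding transcript in place of all exons, 6 pairs were apart and Slc1a5 (267) and Slc7a5 (265) changed places, with overlapping ranges, so their order depends on the gene model. Per kilobase of all exons, light chain RNA per heavy chain RNA was 1.98 to 2.30 for Slc7a5. It was 0.177 to 0.248 for Slc7a6 and at most 0.0129 for Slc7a11, and protein was not measured. These ratios and the span of 245 also depend on the gene model. By longest transcript, Slc7a5 averaged 265, Slc3a2 148, the top gene 267 and the last 1.55.

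**Figure D4:**
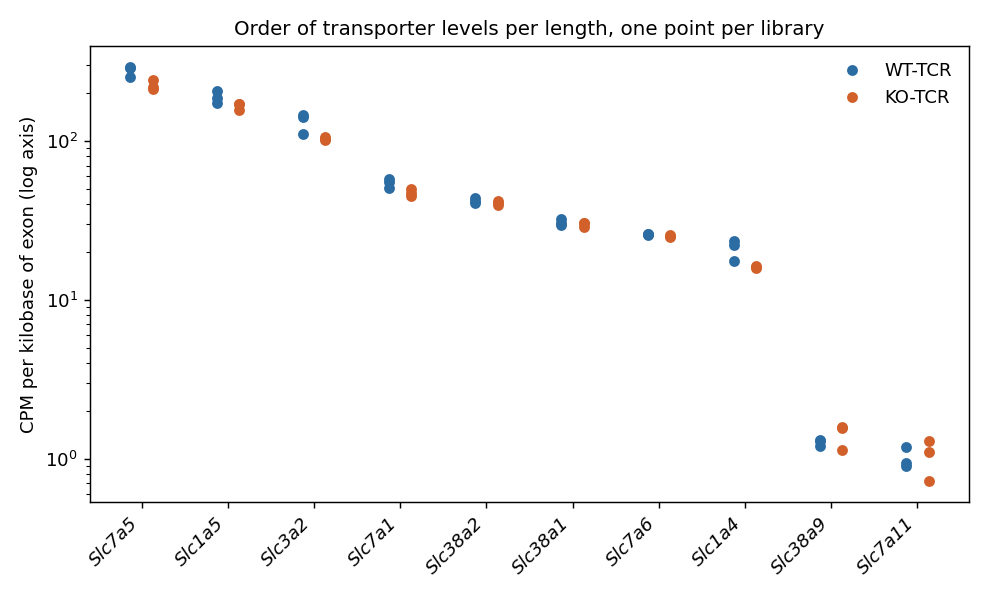
CPM per kilobase of exon (log axis) for each transporter, ordered by its mean over the 6 libraries, with 1 point per library coloured by label. Slc7a5, Slc1a5 and Slc3a2 lead, and Slc38a9 and Slc7a11 overlap at the bottom near 1.

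Other amino acid carriers gave a mixed picture. Of 39 further plasma membrane transporters, 12 had 0 counts in every library and 17 were tested, of which edgeR and DESeq2 called 0. At an unadjusted p under 0.05, 2 were lower and 0 higher, against 3.44% and 3.82% of all genes. The count of 2 fell to 1 without WT replicate 2, WT replicate 3, KO replicate 5 or KO replicate 6. The shares of all genes lower in these fits were 1.6%, 1.58%, 2.59% and 2.48%. Without WT replicate 1 edgeR called 1 of the 17 lower (0.43% of all genes). The 2 were the glycine carrier Slc6a9 (113 CPM ± 17.8 and 84.7 CPM ± 5.66, log2 fold -0.41, edgeR adjusted p = 0.60) and the arginine carrier Slc7a3 (log2 fold -0.30, edgeR adjusted p = 0.68). The taurine carrier Slc6a6, the most abundant of these by CPM, gave a log2 fold of 0.02 (edgeR adjusted p = 0.95), Slc38a10 one of -0.05 and Slc43a2, a carrier of large neutral amino acids, one of -0.05. Among 7 tested lysosomal carriers other than Slc38a9, all 7 estimates were positive, where 47.6% of all genes were negative. Their median log2 fold was 0.18 (0.11 without KO replicate 4 and 0.10 without KO replicate 5). At an unadjusted p under 0.05, 1 gene, Slc15a3, was higher, where 3.82% of all genes were. Slc15a3, which carries histidine and peptides and is abundant in macrophages, gave a log2 fold of 0.75 (edgeR adjusted p = 0.68). Its highest libraries, KO replicates 4 and 6 (5.20 and 5.66 CPM), also had the highest sums of 9 myeloid markers (15.2 and 14.1 CPM, against 4.20 to 8.45 CPM in the others), and the part of myeloid cells in this value was not tested.

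Most genes of the GCN2 and ATF4 response and most tRNA synthetases also had lower estimates, and amino acid supply was not measured. Of 27 genes of the GCN2, eIF2α and ATF4 response, 26 had negative log2 folds (median -0.27), against 47.6% of all tested genes. At an unadjusted p under 0.05, 16 were lower and 0 higher, where 3.44% of all genes were lower and 3.82% higher. After adjustment edgeR called 0, and DESeq2 called 2 lower (0.184% of all genes). Chac1, a glutathione-degrading enzyme, was at 48.4 CPM ± 7.06 under the WT label and 34.0 CPM ± 1.94 under the KO label (adjusted p = 0.53 in edgeR and 0.0088 in DESeq2). Sesn2, a leucine sensor, gave a log2 fold of -0.54 (edgeR adjusted p = 0.60, DESeq2 adjusted p = 0.040) and the translation inhibitor Eif4ebp1 one of -0.34 (edgeR adjusted p = 0.60). The count of 16 was 5 without WT replicate 3 and 6 without WT replicate 2 (1.58% and 1.6% of all genes). It was 9, 10 and 14 without KO replicates 5, 6 and 4 (2.59%, 2.48% and 3.66% of all genes). Without WT replicate 1 it was 19 (7.33% of all genes), and edgeR called 7 of the 27 lower (0.43% of all genes). Of 20 cytosolic tRNA synthetases, 19 had negative log2 folds (median -0.14). At an unadjusted p under 0.05, 7 were lower, beside 3.44% of all genes. This count ran from 2 to 12 when 1 library was left out. It was 2 without WT replicate 2, WT replicate 3 or KO replicate 5 (1.6%, 1.58% and 2.59% of all genes). Without KO replicate 6 it was 3 (2.48% of all genes). It was 11 without WT replicate 1 and 12 without KO replicate 4 (7.33% and 3.66% of all genes). Gars, which loads glycine, had the smallest p (654 CPM ± 60.2 and 549 CPM ± 16.0, edgeR adjusted p = 0.60), followed by Yars (log2 fold -0.21) and Iars, which loads isoleucine (log2 fold -0.19).

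Of 6 tested transcription factors known to act on transporter genes, 5 had negative log2 folds (median -0.12), against 47.6% of all genes. At an unadjusted p under 0.05, 1, Myc, was lower, where 3.44% of all genes were. Myc had 892, 932 and 872 CPM in WT replicates 1, 2 and 3 and 812, 711 and 792 CPM in KO replicates 4, 5 and 6 (log2 fold -0.22, edgeR adjusted p = 0.60). Il2ra, the alpha chain of the IL-2 receptor, had 902, 951 and 932 CPM against 849, 707 and 797 CPM (log2 fold -0.24, edgeR adjusted p = 0.61). B cell markers were few but uneven, with sums over 5 genes of 23.0, 68.0 and 43.2 CPM in WT replicates 1, 2 and 3 and 25.9 to 38.05 CPM in the libraries labelled KO. WT replicates 2 and 3 were thus highest in both the B cell sum and the 5 transporters. The part of activation state and of B cells in the transporter values was not tested.

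**Figure D5:**
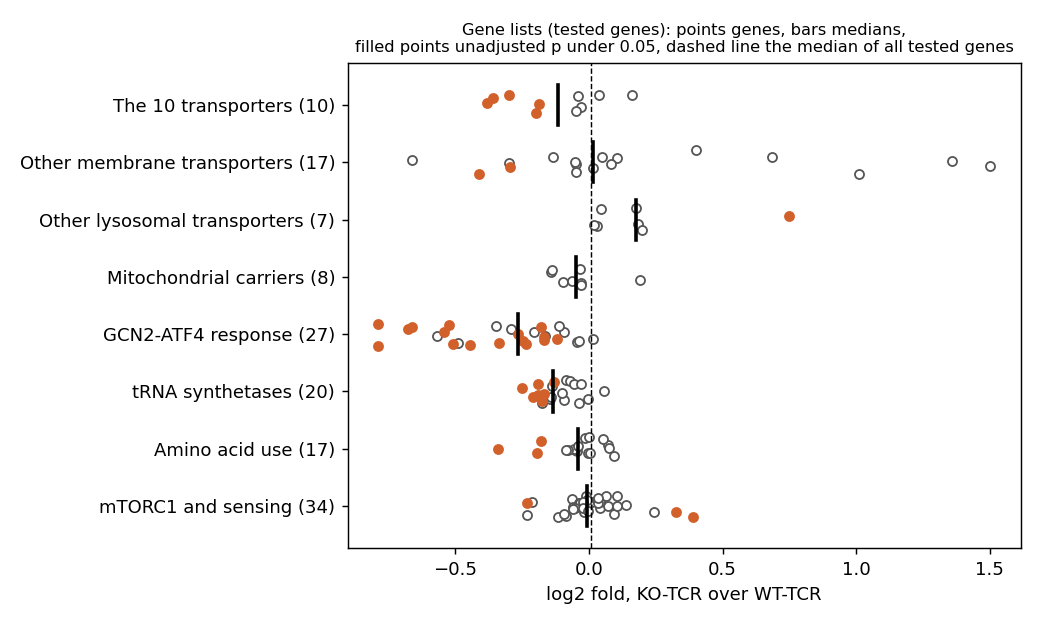
Log2 fold of KO-TCR over WT-TCR for every tested gene of 8 lists (points, filled at an unadjusted edgeR p under 0.05), with list medians as bars and the median of all tested genes as a dashed line. The 10 transporters, the GCN2 and ATF4 genes and the tRNA synthetases have medians of -0.12, -0.27 and -0.14. Mitochondrial carriers, enzymes of amino acid use and the mTORC1 list have medians nearer to 0 (-0.05, -0.04 and -0.01). The other membrane carriers have a median of 0.02 and the other lysosomal carriers one of 0.18.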

How the data were processed

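Raw read counts per gene symbol were deposited by the authors in a single table, 1 column per library, of which 0 were left unused. Per the submitters' processing notes, the tools were HTSeq 0.9.1 and DESeq2 (roles not stated) and the build mm10. Aligner, annotation and strand setting: not given in the sources. Groups follow the genotype in the sample titles.

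The deposited counts were filtered with filterByExpr, scaled by TMM and fitted with robust glmQLFit in edgeR 4.0.16 (R 4.3.3). P-values of glmQLFTest were adjusted by Benjamini-Hochberg over all 15186 tested genes (threshold 0.05). The SE of a log2 fold came from its F statistic, and intervals are at the 95% level. Lengths and coordinates are those of GENCODE M21 (GRCm38, the mm10 assembly). Ratios and correlations had exact two-sided permutation tests, and correlations used log2 CPM with a prior count of 2.

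Members, lists and tests were chosen with earlier results of these data known. The text names the 10 transporters, Map3k14, Myc, Il2ra, up to 3 genes of smallest p per pathway list, the 5 most abundant other membrane or lysosomal carriers and the 5 genes most like Slc7a5. Slc15a3 was named after its values were seen. Alternatives changed the scaling (RLE, upper quartile), the filter (none, or 1 CPM in 3 libraries), the tool (DESeq2 1.42.0, limma-voom 3.58.1), the covariates (sex, read from Xist), the dispersion (not robust) and the genes counted (without mitochondrial, ribosomal protein and immunoglobulin genes), or left out each library. The tools were also run on simulated counts of 15186 genes, in which 100 genes changed 1.3-fold and 100 changed 2-fold. At an adjusted p under 0.05, edgeR called 10 and 59 of these and 3 unchanged genes. DESeq2 called 32 and 67 and 28 unchanged genes, and limma-voom 7 and 56 and 4 unchanged genes. Most 1.3-fold changes were thus missed by every tool, and DESeq2 called the most unchanged genes.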

Additional observations from a re-analysis of the deposited data

How the results depend on the processing

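The log2 folds of 9 of the 10 transporters kept their sign under all 15 alternatives run for each, and Slc7a11 did not. Leaving out 1 library gave Slc7a11 log2 folds from -0.15 to 0.24. The count of genes called over all genes was 1 with all libraries, 10 without a low-count filter, 91 in DESeq2 and from 1 to 119 when 1 library was left out, with the highest value without WT replicate 1 and a count of 2 without WT replicate 2. The number of transporters with an unadjusted p under 0.05 was 5 under every alternative with all 6 libraries and from 3 to 5 when 1 library was left out. The 5 without KO replicate 4 were 4 lower and Slc38a9 higher. The edgeR adjusted p of Slc3a2 and of Slc1a4 was under 0.05 without WT replicate 1 alone, and lay between that and 0.995 elsewhere. The log2 difference of the Slc38a1 to Slc38a2 ratio ran from -0.010 to 0.016 when 1 library was left out, and was -0.000345 without WT replicate 3, and the cause was not tested. List counts under each alternative were added after seeing the data. No paired analysis was possible because the groups have no replicate number in common. Slc7a11 and Slc38a9 had the fewest counts and the widest intervals of the 10, and the part of depth in this was not tested.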

Other observations

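Among 8 tested mitochondrial carriers of amino acids, 7 had negative log2 folds (median -0.05), against 47.6% of all genes. Both edgeR and DESeq2 called 0, and 0 had an unadjusted p under 0.05 in either direction. Without KO replicate 5, 1 carrier was lower at an unadjusted p under 0.05 (2.59% of all genes). Slc25a13, the aspartate and glutamate carrier citrin, had the smallest p (30.7 CPM ± 1.97 under the WT label, 35.003 CPM ± 5.38 under the KO label, edgeR adjusted p = 0.71). Among 17 tested enzymes that use imported amino acids, 3 were lower and 0 higher at an unadjusted p under 0.05. The shares of all genes were 3.44% and 3.82%. Both edgeR and DESeq2 called 0 of the 17. The count of 3 was 1 without WT replicate 2, WT replicate 3 or KO replicate 5 (1.6%, 1.58% and 2.59% of all genes). Without KO replicate 6 it was 2 (2.48% of all genes). The 3 were the aminotransferase genes Got1 (log2 fold -0.19, edgeR adjusted p = 0.60), Gpt2 (log2 fold -0.34, edgeR adjusted p = 0.62) and Bcat1, which acts on leucine, isoleucine and valine (log2 fold -0.18, edgeR adjusted p = 0.67).

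Of 34 genes of mTORC1 and its sensing machinery, 15 had positive and 19 negative log2 folds (median -0.01), where 47.6% of all genes were negative. The sign of this median turned with a sex term and without WT replicate 1, WT replicate 3 or KO replicate 6. At an unadjusted p under 0.05, 2 were higher and 1 lower, against 3.82% and 3.44% of all genes. After adjustment edgeR called 0 of the 34 and DESeq2 called 1 (0.599% of all genes). The sestrins differed in direction. Sesn3 was higher in every library labelled KO (192 CPM ± 21.1 and 251 CPM ± 23.1, log2 fold 0.39, edgeR adjusted p = 0.60, DESeq2 adjusted p = 0.040). Sesn1 gave 0.33 with overlapping groups (edgeR adjusted p = 0.68), against -0.54 for Sesn2. The difference between these folds was not tested. Rheb, the GTPase that activates mTORC1, was lower in every library labelled KO (78.2 CPM ± 7.02 and 66.6 CPM ± 0.938, log2 fold -0.23, edgeR adjusted p = 0.60). Of all tested genes, 6.68% lay wholly above and 6.07% wholly below in the libraries labelled KO.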
